A study of Mus musculus with 6 samples.

Results

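The TGF-beta genes described here are the ligands Tgfb1, Tgfb2 and Tgfb3, the receptors Tgfbr1, Tgfbr2 and Tgfbr3, the latency proteins Ltbp1, Ltbp2 and Ltbp3, and the induced matrix gene Tgfbi. They were chosen by symbol, as every row of the deposited table that carries 1 of these 10 names, which gave 22 of the 25697 probes. They were measured in MEFs, fibroblasts cultured from mouse embryos, of the C57BL/6 background, labelled either truncated NELF-B or full length NELF-B. The sample names tie the truncated form to an ATG start codon, and by its title the study concerns a start codon of NELF-B other than AUG. NELF-B is a subunit of the negative elongation factor, which holds RNA polymerase II near promoters. Both forms were grown with 10% serum to 50% confluence, and each form had 3 Illumina bead arrays of total RNA. The labels do not say how the truncated form was introduced, whether a form is 1 line or several, or whether the samples of a form came from separate cultures, so the spread behind each p-value may be only technical.

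TGF-beta is secreted as a latent complex, in which the growth factor stays bound to its own propeptide. Latent TGF-beta binding proteins fix that complex to matrix fibrils until proteases or integrins release it. The free ligand brings together a type II and a type I receptor kinase, which phosphorylate SMAD proteins that enter the nucleus, and in fibroblasts this pathway is known for driving matrix genes and for slowing division.

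The arrays read the cells as fibroblast-like, with 7 of 8 fibroblast markers tested and the eighth, Thy1, not above background on any array. Above background were 46.4% to 48.7% of the probes, and the arrays' median intensities lay between 143 and 152. Nelfb itself, on its brighter probe, read 7.01, 7.08 and 6.93 in truncated cells and 6.78, 6.63 and 6.64 in full-length cells on the normalized log2 scale, and it did not pass the test (adjusted p = 0.144, limma). Of the 7 fibroblast markers, Dcn fell (adjusted p = 0.0441, limma, a call lost in 5 of the 6 fits that left out 1 array) and the others did not pass, and the list had a median log2 fold change of -0.46. Its summed normalized signal was 22350 to 24727 in truncated cells and 25897 to 30739 in full-length cells, and its part in the results that follow was not tested. Markers of other cells were dim apart from Cd14, whose normalized log2 mean was 10.76 in truncated and 11.06 in full-length cells. Krt18, Pecam1, Cdh5, Adgre1, Lyz2, Myod1, Myf5, Sall4 and Zfp42 were not above background on any array. The summed signal of the tested ones was 87 to 93 in truncated cells and 76 to 83 in full-length cells for the epithelial markers Cdh1 and Krt19. It was 27 to 33 in truncated cells and 38 to 45 in full-length cells for the endothelial marker Kdr, and 25 to 35 in truncated cells and 35 to 46 in full-length cells for the muscle marker Des. The pluripotency marker Pou5f1 had 46 to 59 in truncated cells and 46 to 54 in full-length cells. Haematopoietic markers (Cd68, Csf1r, Cd14) summed to 1777 to 1886 in truncated cells and 2130 to 2290 in full-length cells, nearly all of it from Cd14, a lipopolysaccharide coreceptor. None of these other markers passed the test.

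The expression of 1 of the 10 genes differed between the forms. Tgfb2, a ligand, was 1.75-fold lower in truncated than in full-length cells, and the other 9 did not pass the test at an adjusted p under 0.05. Over the 8990 genes tested 1.6% were called, made up of 1.09% lower and 0.512% higher. Log2 fold changes were below 0 for 9 of the 10 genes, against 48.3% of all genes, with a median of -0.235 over the 10 genes and 0.01 over all genes. For Tgfb2, Tgfb3, Tgfbr2, Ltbp3 and Tgfbi every truncated array lay below every full-length array, which was so for 12.8% of all genes. No gene of the 10 had its truncated arrays all above its full-length arrays, which was so for 12.9% of all genes. Each fold change divides truncated by full-length, each ± on it is limma's standard error (SE), and n = 3 arrays for either form. In these whole-culture RNA samples, fewer cells of a type and less RNA per cell cannot be told apart.

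**Figure D1:**
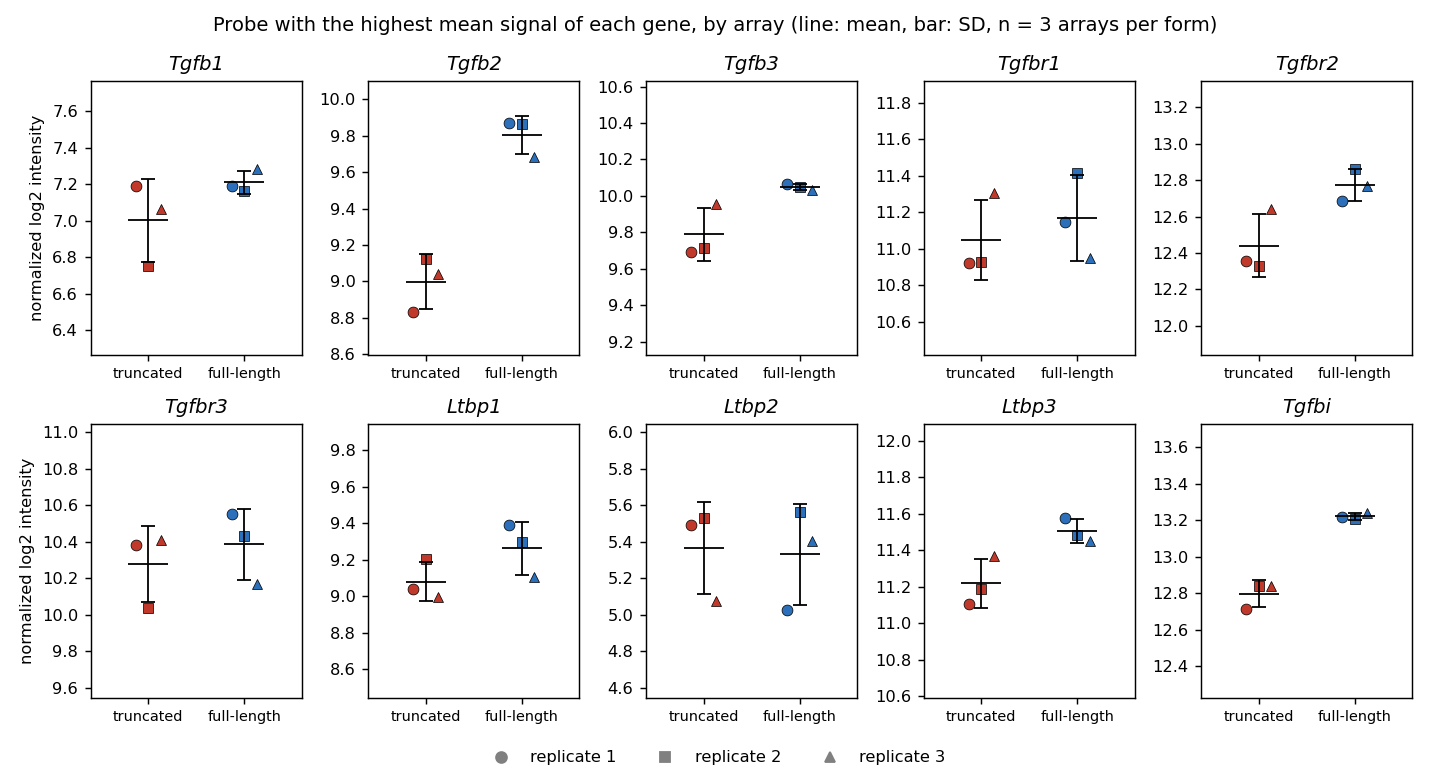
Normalized log2 intensity (vertical axis, all panels spanning the same range) of the probe that stands for each gene, on the 3 truncated (red) and 3 full-length (blue) arrays, with mean and SD. The groups are separate for Tgfb2, Tgfb3, Tgfbr2, Ltbp3 and Tgfbi and overlap for the other 5 genes.

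The promoters of 4 genes are shown: Tgfb2 because it passed the test, Tgfbi and Tgfbr2 because they had the next largest differences, and Tgfb1 as a ligand whose arrays overlapped. Each run is the 250 bases before a transcript start in the RefSeq promoter table of build GRCm38.p6, read 5′ to 3′ on the gene's strand. That table held 8 of the 10 genes, in 10 entries, with none for Tgfb3 and Tgfbr3. The Tgfb2 entry starts inside the gene as annotated, so its 250 bases lie within the annotated gene. Whether a longer transcript covers them was not checked. Capitals mark matches, on either strand, to the TATA box TATAAA, the E-box CACGTG, the GC box GGGCGG, the CCAAT box CCAAT, the AP-1 motif TGANTCA and the SMAD-binding motif CAGAC.
Tgfb2 (chr1:186705990-186706239, minus strand): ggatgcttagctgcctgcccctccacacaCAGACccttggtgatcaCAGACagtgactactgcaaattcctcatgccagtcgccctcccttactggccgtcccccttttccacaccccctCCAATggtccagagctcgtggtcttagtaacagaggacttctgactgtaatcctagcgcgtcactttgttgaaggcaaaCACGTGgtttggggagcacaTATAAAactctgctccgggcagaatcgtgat
Tgfb1 (chr7:25686752-25687001, plus strand): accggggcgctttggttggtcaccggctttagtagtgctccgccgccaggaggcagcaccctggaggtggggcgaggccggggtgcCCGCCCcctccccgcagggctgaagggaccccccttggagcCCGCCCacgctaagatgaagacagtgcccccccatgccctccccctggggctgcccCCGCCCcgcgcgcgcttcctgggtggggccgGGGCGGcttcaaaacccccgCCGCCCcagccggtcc
Tgfbr2 (chr9:116175364-116175613, minus strand): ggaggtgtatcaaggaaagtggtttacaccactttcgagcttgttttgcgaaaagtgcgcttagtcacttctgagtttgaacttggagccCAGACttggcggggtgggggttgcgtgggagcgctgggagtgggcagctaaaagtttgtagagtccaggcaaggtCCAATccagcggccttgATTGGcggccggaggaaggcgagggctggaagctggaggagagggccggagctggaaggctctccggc
Tgfbi (chr13:56609336-56609585, plus strand): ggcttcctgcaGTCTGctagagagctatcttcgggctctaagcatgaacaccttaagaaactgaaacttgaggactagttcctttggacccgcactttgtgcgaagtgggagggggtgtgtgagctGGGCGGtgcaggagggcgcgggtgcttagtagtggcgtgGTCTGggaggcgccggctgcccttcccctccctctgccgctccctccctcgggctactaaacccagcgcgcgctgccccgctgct

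In Tgfb2 a TATA box began 31 bases and an E-box 51 bases before the start, and it was the only gene of the 8 with either motif. Of all 32851 promoter entries, 12.4% held TATAAA and 6.02% held CACGTG in the same window. Tgfb1 had no TATA box but 5 GC boxes, and GGGCGG was found in 32.7% of all entries. The SMAD motif CAGAC, which is short, occurred in 8 of the 10 entries of these genes, against 42.2% of all entries. By gene it was found in 7 of the 8, in each but Tgfb1, and in Tgfbr1 only in the entry inside the gene. CCAAT was found in 4 of the 10 entries, 1 for each of 4 genes, against 33.8% of all entries. No entry of these genes held the AP-1 letters, against 6.75% of all entries. No match overlapped another in the 4 runs shown. A match is a description of letters in this window and not a binding site.

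The ligands differed most in Tgfb2, an isoform known for its part in development of mesenchymal tissues. Its deposited intensities were 505, 667 and 703 on truncated arrays and 1101, 1111 and 915 on full-length arrays, so the brightest truncated array was below the dimmest full-length array. After normalization Tgfb2 read 8.83, 9.13 and 9.04 in truncated cells and 9.87, 9.86 and 9.68 in full-length cells on the log2 scale. The log2 fold change was -0.80 ± 0.12 (SE, 95% confidence interval -1.08 to -0.53, adjusted p = 0.0263, limma with Benjamini-Hochberg adjustment over 8990 genes). It ranked 32nd of all genes by p and 77th by size of change, and 0.701% of genes had a lower fold change. The two-sided exact permutation p of this single gene was 0.1, the smallest that 3 against 3 arrays allow. The call was lost without truncated replicate 1 (adjusted p = 0.106), truncated replicate 2 (0.0671), and likewise without replicate 1 (0.111), 2 (0.0852) or 3 (0.0869) of the full-length form. It held without truncated replicate 3 (adjusted p = 0.0367), and the log2 fold change stayed between -0.87 and -0.72 in these 6 refits.

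Tgfb3, an isoform of the same family known in palate closure and wound repair, read 9.69, 9.72 and 9.96 in truncated cells and 10.07, 10.05 and 10.03 in full-length cells. The groups did not overlap, with truncated replicate 3 closest to the full-length arrays, and the difference, -0.26 ± 0.11 in log2 fold change, did not pass (adjusted p = 0.235, limma). In the intensities before normalization the groups of Tgfb3 did overlap, with 1211 on truncated replicate 3 and 1131 on full-length replicate 3. Tgfb1, the isoform best known in fibrosis and immune control, read 7.19, 6.75 and 7.07 in truncated cells and 7.19, 7.16 and 7.28 in full-length cells. Truncated replicate 1 lay within the full-length range, and the log2 fold change was -0.21 ± 0.13 (adjusted p = 0.423, limma). The 95% confidence intervals of Tgfb1 (-0.51 to 0.09) and Tgfb3 (-0.52 to -0.01) lay within 2-fold, as for 97.2% of all genes, while that of Tgfb2 reached past 2-fold lower.

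The ligands were also set against each other within each array. The log2 difference of Tgfb2 minus Tgfb3, centred on the 6 arrays, was -0.34, -0.07 and -0.40 in truncated cells and 0.32, 0.33 and 0.17 in full-length cells, a difference between the forms of -0.54. For Tgfb2 minus Tgfb1 the centred values were -0.66, 0.08 and -0.32 in truncated cells and 0.38, 0.41 and 0.11 in full-length cells, a difference of -0.60. Both had a two-sided exact permutation p of 0.1 (0.15 adjusted over the 3 ligand pairs), the smallest that this test allows with 3 against 3 arrays. Tgfb3 minus Tgfb1 differed by -0.05 between the forms (exact permutation p = 0.9).

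**Figure D2:**
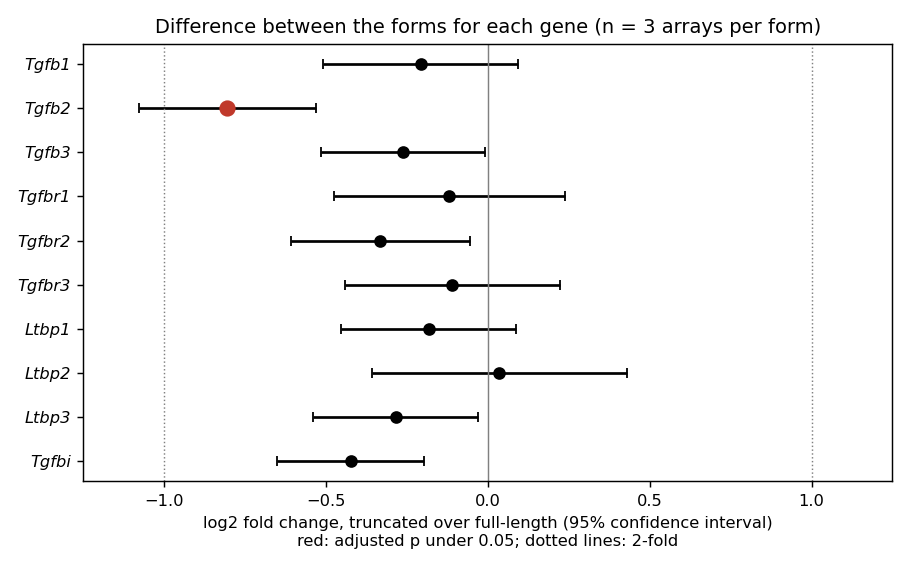
Log2 fold change of each gene, truncated over full-length (horizontal axis), with its 95% confidence interval from limma (n = 3 arrays per form). Tgfb2 at -0.80 is the only gene past the threshold, Tgfb3, Tgfbr2, Ltbp3 and Tgfbi have intervals wholly below 0, and the other 5 intervals span 0.

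None of the 3 receptor genes passed the test. Tgfbr2, the type II receptor kinase that binds ligand, read 12.35, 12.33 and 12.64 in truncated cells and 12.69, 12.86 and 12.77 in full-length cells. The groups did not overlap, though truncated replicate 3 lay within 0.05 of the lowest full-length array, and the log2 fold change was -0.33 ± 0.12 (adjusted p = 0.181, limma). The dimmer Tgfbr2 probe also had all truncated arrays below all full-length arrays after normalization (-0.23 ± 0.11 on the log2 scale, adjusted p = 0.446 when limma was run on all 25697 probes), while before it full-length replicate 3, at an intensity of 210, lay below truncated replicates 2 and 3, at 213 and 214.

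Tgfbr1, the type I receptor kinase that phosphorylates SMAD2 and SMAD3, read 10.92, 10.92 and 11.30 in truncated cells and 11.15, 11.42 and 10.95 in full-length cells. Its groups overlapped, and the log2 fold change was -0.12 ± 0.16 (adjusted p = 0.714, limma). A second Tgfbr1 probe, near background at intensities of 155, 168 and 164 in truncated cells and 158, 156 and 148 in full-length cells, went the other way. After normalization its lowest truncated array was above its highest full-length array (log2 fold change 0.37 ± 0.11, adjusted p = 0.207, limma fit of all probes). It was above background on 3 truncated and 2 full-length arrays, and the remaining 2 Tgfbr1 probes were above background on none. Tgfbr3, the coreceptor betaglycan that presents TGF-beta2 to the type II receptor, read 10.38, 10.04 and 10.41 in truncated cells and 10.55, 10.43 and 10.17 in full-length cells. These groups overlapped, and the log2 fold change was -0.11 ± 0.15 (adjusted p = 0.72, limma). Its dimmer probe was above background on 1 truncated and 2 full-length arrays, and its groups overlapped as well.

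None of the latency proteins passed, of which Ltbp1 and Ltbp3 bind the latent complex covalently and Ltbp2 binds fibrillin microfibrils without it. Ltbp3 read 11.10, 11.19 and 11.37 in truncated cells and 11.58, 11.48 and 11.45 in full-length cells. The truncated arrays all lay lower after normalization, and the log2 fold change was -0.28 ± 0.11 (adjusted p = 0.204, limma). Before it the groups overlapped, with an intensity of 2978 on truncated replicate 3 and 2903 on full-length replicate 3. On the dimmer Ltbp3 probe the groups overlapped, at intensities of 313, 380 and 385 in truncated cells and 410, 494 and 335 in full-length cells.

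Ltbp1 read 9.04, 9.20 and 8.996 in truncated cells and 9.39, 9.30 and 9.10 in full-length cells. Truncated replicate 2 lay above full-length replicate 3, and the log2 fold change was -0.18 ± 0.12 (adjusted p = 0.431, limma). Of 6 Ltbp1 probes only this one passed the filter, and 4 of the other 5 were above background on no array. Ltbp2 had 1 probe, close to background at intensities of 155, 164 and 156 in truncated cells and 153, 172 and 157 in full-length cells. Its log2 fold change of 0.04 ± 0.17 (adjusted p = 0.936, limma) was the only one above 0 among the 10 genes, and its interval (-0.36 to 0.43) lay within 2-fold in the normalized values, which understate the fold of dim probes.

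Tgfbi, a secreted matrix protein named for its induction by TGF-beta, had the second largest difference. Its deposited intensities were 6039, 7374 and 7785 in truncated cells and 10048, 9723 and 9815 in full-length cells, with no overlap. The normalized log2 values were 12.71, 12.84 and 12.84 in truncated cells and 13.22, 13.20 and 13.24 in full-length cells, and the log2 fold change was -0.42 ± 0.10 (adjusted p = 0.0739, limma), which did not pass. The other Tgfbi probe had intensities of 1250, 1574 and 1918 in truncated cells and 2149, 2360 and 2199 in full-length cells, again without overlap. Its log2 fold change was -0.47 ± 0.11 (adjusted p = 0.144, limma fit of all probes without the detection filter), so both Tgfbi probes stood lower by a like amount. In that same limma fit the brighter probe had an adjusted p of 0.110. The adjusted p of the brighter probe depended on the processing and lay between 0.0017 and 0.25 over 18 alternative fits, of which 6 called it.

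**Figure D3:**
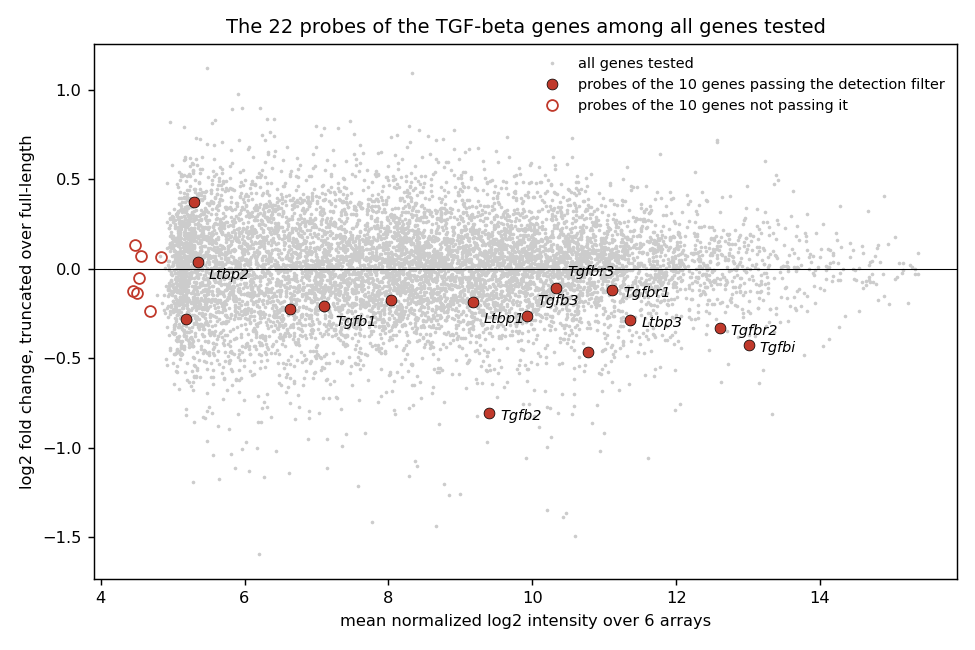
Log2 fold change, truncated over full-length (vertical axis), against mean normalized log2 intensity over the 6 arrays (horizontal axis) for the 22 probes of the 10 genes (red) and for all 8990 genes tested (grey). Of the 15 probes that passed the detection filter (filled) 13 lie below 0, and the 7 that did not (open) sit at the dim end. The labelled point of each gene is its probe with the highest mean signal.

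Over the 10 genes, values centred on the 6 arrays averaged -0.16, -0.17 and -0.07 on truncated replicates 1, 2 and 3 and 0.14, 0.20 and 0.07 on full-length replicates 1, 2 and 3. Among pairs of arrays from different forms, truncated replicate 3 and full-length replicate 3 lay nearest to each other in this average, while arrays within a form lay nearer still.

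The intracellular part of the pathway had a median fold change close to that of all genes. Of 27 genes of SMAD signalling and its regulators 18 were tested, of which 1 rose, none fell and 17 did not pass, with a median log2 fold change of 0.04 against 0.01 over all genes. Among all genes 0.512% were called higher and 1.09% lower. Wwp1, a ubiquitin ligase that targets pathway components, rose, at 6.62, 6.51 and 6.64 in truncated cells and 6.00, 5.93 and 6.05 in full-length cells (log2 fold change 0.59 ± 0.10, adjusted p = 0.038, limma). The Wwp1 call was lost without truncated replicate 1 (adjusted p = 0.141) or 2 (0.0898) and without full-length replicate 1 (0.124), 2 (0.108) or 3 (0.0986). Its log2 fold change was 0.24 with no background correction (adjusted p = 0.06) and 0.23 in the authors' series matrix values (adjusted p = 0.0677). In all, the Wwp1 call held in 7 of 18 alternative fits. Smad2, a receptor-phosphorylated SMAD, was at 0.35 ± 0.10 (adjusted p = 0.121) with no overlap between the groups, and Smad3, the other one, at -0.30 ± 0.16 (adjusted p = 0.35) with overlap. Strap, which binds the receptors, stood at 0.27 ± 0.11, the deubiquitinase gene Usp4 at 0.26 ± 0.14 and the inhibitory Smad6 at -0.05 ± 0.19, and none of them passed. The inhibitory Smad7, a feedback target of the pathway, was not above background on any array, and Smad4 was not analysed here.

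Of 29 genes listed under storage and activation of latent TGF-beta 21 were tested, of which 1 fell, none rose and 20 did not pass. Their values were below 0 for 16, with a median of -0.13. The list also holds genes that bind TGF-beta, such as Dcn, so a lower value has no single meaning for its release. Among all genes 1.09% were called lower, 0.512% were called higher and 48.3% had values below 0. Dcn, a small proteoglycan that binds TGF-beta, fell, at 11.27, 11.72 and 11.76 in truncated cells and 12.39, 12.42 and 12.32 in full-length cells (log2 fold change -0.79 ± 0.14, adjusted p = 0.0441, limma). That call of Dcn was lost when truncated replicate 1 (adjusted p = 0.118) or 2 (0.0898) or full-length replicate 1 (0.126), 2 (0.111) or 3 (0.10) was left out, and it held in 9 of 18 alternative fits, with a log2 fold change of -0.88 to -0.63. The groups did not overlap for the proteases Adamts1 (-0.76 ± 0.19), Htra1 (-0.41 ± 0.10), Mmp2 (-0.43 ± 0.11) and Bmp1 (-0.39 ± 0.11), all lower, and none of these passed (adjusted p = 0.0849 to 0.115). In the list as a whole 6 of the 21 genes had all truncated arrays below all full-length arrays, against 12.8% of all genes. Another 3 had them above, against 12.9% of all genes. These 3 were the integrin subunit gene Itgav (0.35 ± 0.15), the urokinase receptor gene Plaur (0.26 ± 0.11) and the convertase gene Furin (0.12 ± 0.10). They were named after their values were seen and did not pass (adjusted p = 0.228 to 0.568, limma).

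Of 39 TGF-beta response genes of fibroblasts 34 were tested, of which 1 fell, none rose and 33 did not pass, with 22 values below 0 and a median of -0.135. Of the 34, 13 had all truncated arrays below all full-length arrays and 2 had them above. For all genes these shares were 12.8% and 12.9%, with 48.3% of values below 0. Among all genes 1.09% were called lower and 0.512% higher. Cdkn2b, an inhibitor of CDK4 and CDK6 that TGF-beta induces, fell, at 10.56, 10.65 and 10.65 in truncated cells and 11.30, 11.23 and 11.38 in full-length cells (log2 fold change -0.68 ± 0.10, adjusted p = 0.0264, limma). Leaving out truncated replicate 1 (adjusted p = 0.118) or 2 (0.0847) or full-length replicate 1 (0.111), 2 (0.0719) or 3 (0.0954) ended the Cdkn2b call. The call held without truncated replicate 3 (adjusted p = 0.0365, limma). In all it held in 12 of 18 alternative fits, with a log2 fold change between -0.74 and -0.65. The collagen genes Col1a2 (-0.58 ± 0.12) and Col3a1 (-0.66 ± 0.15), the transcription factor gene Zeb2 (-0.74 ± 0.15) and the sphingosine kinase gene Sphk1 (-0.81 ± 0.18) did not pass, with adjusted p from 0.0522 to 0.0697, and none of their groups overlapped. In the other direction 12 values were above 0. The genes with all truncated arrays above were Id1 (0.52 ± 0.15, adjusted p = 0.106, limma) and Ccn2, an induced matricellular protein (0.27 ± 0.13, adjusted p = 0.288, limma). The list was not sorted by the direction in which TGF-beta moves each gene, so its median gives no single direction of response. The 4 tested genes of the activin branch did not pass, with the receptor Acvr2b at -0.35 ± 0.12, the activin antagonist follistatin (Fst) at 0.35 ± 0.15, the activin subunit Inhba at 0.33 ± 0.19 and the receptor Acvr1 at -0.05 ± 0.13. Inhba read 9.22, 8.96 and 8.45 in truncated cells and 8.67, 8.58 and 8.38 in full-length cells, so its groups overlapped.

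**Figure D4:**
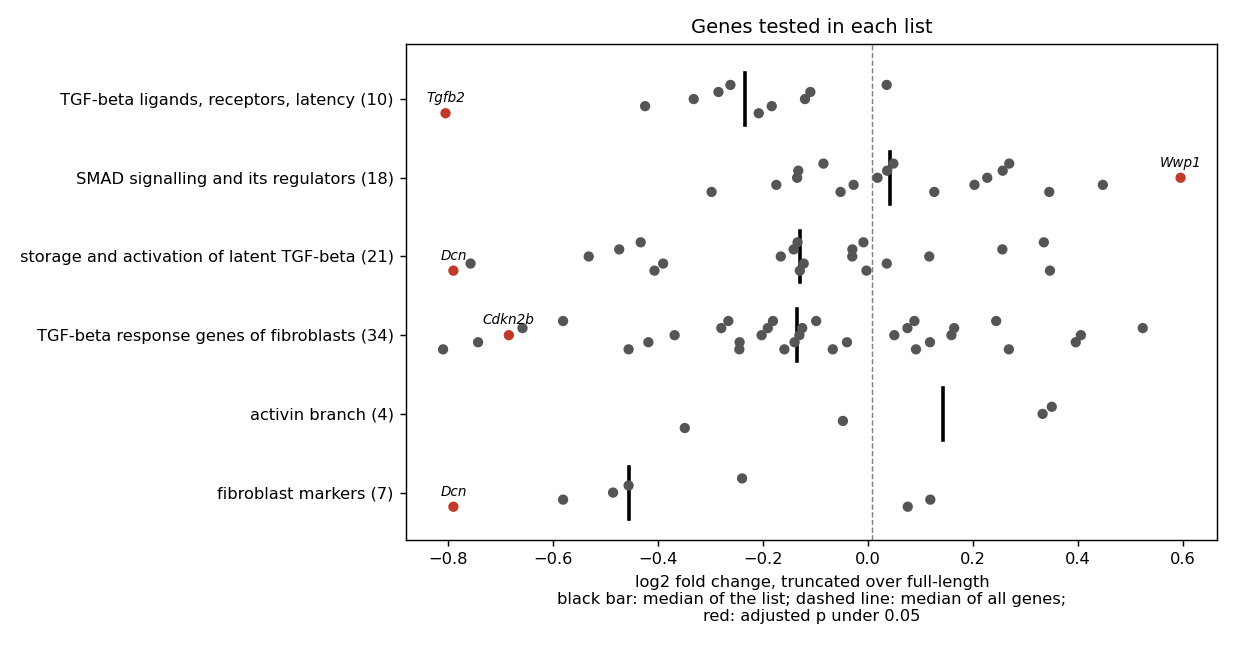
Log2 fold change, truncated over full-length (horizontal axis), of every tested gene in 6 lists, with the number tested in brackets, the median of each list (bar) and that of all genes (dashed line). The medians of the 10 TGF-beta genes (-0.235) and of the fibroblast markers (-0.46) lie left of those of SMAD signalling (0.04) and the activin branch (0.14). The marker list shares Dcn with the latent TGF-beta list and Col1a1 and Col1a2 with the response list, so these lists are not separate. Vertical spread within a list only separates the points.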

How the data were processed

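Total RNA of 3 truncated and 3 full-length NELF-B samples was amplified, biotin-labelled and hybridised to Illumina bead arrays of 1 colour, per the labels' protocols. For every probe the deposited table holds the mean bead intensity and a detection p-value, per the file headers, without normalization, and the lowest deposited intensity was 103.2, so no background had been subtracted. The submitters' processing notes name GenomeStudio, with neither version nor chip stated. The authors' series matrix, intensities on a linear scale that look quantile normalized with column medians of 143.1 to 143.3, served as an alternative. No column was left unused (0).

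Probes were named by RefSeq accession (24202 of 25697), else by symbol (536) or synonym (297). The neqc method of limma 3.58.1 (R 4.3.3) corrected background by normexp, taking the negative controls from the detection p-values, with an offset of 16, followed by quantile normalization and log2, which understates folds of dim probes. The 12227 probes detected (p under 0.05) on 3 or more arrays were kept, and the probe with the highest mean stood for each of 8990 genes. Groups were compared with lmFit and eBayes, with Benjamini-Hochberg adjustment over all genes tested. The number of arrays limits the precision. The fit was tested on simulated data. Further probes were read from a limma fit of all 25697 probes without the detection filter, in which Tgfb2 had an adjusted p of 0.0609 and was not called. Named genes are the 10 genes, the 5 of each pathway list with the smallest p and all called, core pathway genes (1 is not reported here), detected markers and Nelfb. The genes and lists were chosen with earlier results of these data known. No pair of arrays was identical. Figures were drawn with matplotlib 3.10.9.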

Additional observations from a re-analysis of the deposited data

How the results depend on the processing

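Counts of called genes depended on the processing and on single arrays, and Tgfb2 kept its direction in all 18 alternatives (log2 fold change -0.87 to -0.64) and its call in 12. Of all genes 144 were called in the reported fit, against 633 with normexp and an offset of 50, 706 with no background correction, 81 with median scaling, 731 in the authors' series matrix, 33 with no filter on dim probes, 335 with a detection p under 0.01 on all arrays, 78 with every probe tested, 723 with a variance trend and robust eBayes, and 355 with array weights. Of the 10 TGF-beta genes 1 was called in the reported fit, 2 under normexp with offset 50, the stricter detection filter or array weights, and 3 with no background correction, the series matrix or the variance trend, where Tgfbi and Tgfbr2 joined Tgfb2. Of the 4 pathway lists 18, 21, 34 and 4 genes were tested in the reported fit, and 3 of them were called. The count was 15 under normexp or no correction and 16 in the series matrix or under the variance trend. It was 10 with the stricter filter or array weights, and 1 with median scaling or with no filter. All genes tested numbered 8990 in each of these fits, except 17913 with no filter and 7406 with the stricter filter. The fit with every probe tested had 12227 probes. The cause of these shifts was not tested. A change of filter alters how many genes are adjusted over, and unadjusted p-values moved with it as well.

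Leaving out truncated replicates 1, 2 and 3 or full-length replicates 1, 2 and 3 left 0, 13, 323, 0, 0 and 6 called genes (limma, filter kept at 3 arrays), and the refits with 0 calls had 1178, 1430 and 1548 genes at an unadjusted p under 0.05. The count over the 10 genes was 0 to 1, with 2 to 5 at an unadjusted p under 0.05. Over the pathway lists it was 0 to 6, with 18 to 28 unadjusted. Over all genes, 1178 of 8863 (without truncated replicate 1) to 2072 of 8803 (without truncated replicate 3) had an unadjusted p under 0.05. In the reported fit 1808 of 8990 genes, 5 of the 10 and 25 list genes did. With the replicate number as a block, 33 of 8990 genes were called (1543 at an unadjusted p under 0.05). Of the 10 genes 0 were called (3 unadjusted) and of the list genes 0 (20 unadjusted), and Tgfb2 had an adjusted p of 0.0655. The samples share only a number: deviations from the group means of same-numbered samples correlated at 0.032, -0.159 and -0.136 across genes, and not every sample correlated best with its own number.

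Values that changed sign were small. Tgfbr1 was at 0.13 when its probes were averaged, and leaving out 1 array moved it between -0.245 and 0.004. In the same refits Tgfbr3 ranged from -0.214 to 0.01 and Ltbp2 from -0.114 to 0.179. With median scaling Ltbp2 was at -0.029, the SMAD list's median at -0.007 and the median of all genes at -0.054, and with every probe tested the SMAD list's median was -0.014. Signal near background limits Ltbp2, the second Tgfbr1 probe and the dimmer Tgfbr3 probe.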
